A study of Mus musculus with 4 samples.

Results

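A set of 10 amino acid transporter genes was followed in the transcriptomes of mouse granulosa cells (GCs), the somatic cells around the oocyte. The genes were chosen by name (Slc38a1, Slc38a2, Slc38a3, Slc38a4, Slc7a1, Slc7a5, Slc7a6, Slc7a8, Slc3a2 and Slc1a5) and were 10 of 55385 genes listed. All 10 passed the filter on low counts that left 19259 genes for testing. The GCs came from preantral follicles of Kunming mice aged 12 to 14 days, each follicle grown alone in vitro for 6 days in medium with FSH and insulin. In the NT4 group the medium also held neurotrophin-4 (NT-4), a growth factor that binds the receptor TRKB, and in the Control group it did not. Each group had 2 libraries, from independent experiments by the study's description. The labels of these libraries give no NT-4 dose, though the paper names the dose it used in the work after its dose series. How many follicles made up a library is not given in the sources used here.

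GCs take up amino acids from the medium and pass a part of them to the oocyte through gap junctions, because the oocyte takes up some of them poorly by itself. Transporters differ in what they carry. The SNAT proteins (Slc38 genes) bring in small neutral amino acids with sodium, whereas light chains such as Slc7a5, Slc7a6 and Slc7a8 exchange amino acids across the membrane once bound to the heavy chain CD98 (Slc3a2). In mouse cumulus cells, the GCs next to the oocyte, Slc38a3 is known as a gene whose level depends on signals from the oocyte.

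Library totals ran from 49520092 to 78704020 counts, an estimated 12380023 to 19676005 read pairs at about 4 counts per pair. Values are given as CPM, counts scaled to a common library total. The lowest count of the set, 925 counts of Slc1a5 in Control 1, stands for about 231 read pairs and a counting error of 6.58%, which covers counting error only. None of the 10 genes shares exon bases with another annotated gene. All 14 granulosa markers passed the filter, and their summed level ran from 12741 to 19266 CPM. Of 14 oocyte markers 13 passed it, with a summed level of 85.6 to 123.7 CPM. The 11 theca and stroma markers summed to 1181 and 1153 CPM in the Control libraries and to 1671 and 1324 CPM in the NT4 libraries, higher in both. Macrophage (1.38 to 2.97 CPM, with Tyrobp at 0 in all), endothelial (19.5 to 28.7), surface epithelial (34.5 to 43.3, Krt19 at 0) and hepatocyte markers (72.7 to 122.4, highest in Control 1) summed to less. The median log2 fold change of the 6 hepatocyte markers was −0.88, that of the 11 theca and stroma markers 0.39 and that of the 3 tested macrophage markers 0.52. The summed hepatocyte level was nevertheless 122.4 and 72.7 CPM in Control and 79.4 and 81.0 CPM in NT4, so both NT4 values lay between the Control values. The part of these markers in the results was not tested. In bulk libraries fewer cells of a type and less RNA per cell cannot be told apart.

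The sodium-coupled SNAT genes were described first. Slc38a2 (SNAT2, ENSMUSG00000022462, chr15:96687392-96699730), a System A carrier of alanine, glutamine and other small neutral amino acids, had the most reads of the set, with Control libraries of 652.1 and 552.2 CPM (numbers 1 and 2, the order used throughout) and NT4 libraries of 669.3 and 448.6 CPM. Both libraries numbered 1 were above both numbered 2, and the groups overlapped. Slc38a1 (SNAT1, ENSMUSG00000023169, chr15:96571418-96642913), the neighbouring gene with a like range of substrates, was the steadiest, with Control libraries of 144.9 and 149.3 CPM and NT4 libraries of 142.4 and 135.7 CPM. Its highest library was only 1.10-fold above its lowest, and both NT4 libraries lay slightly under both Control libraries. Slc38a4 (SNAT4, ENSMUSG00000022464, chr15:96994820-97055956), on the same chromosome and known as an imprinted gene, was among the least abundant and varied most, with 29.5 and 13.3 CPM in the Control libraries and 20.3 and 13.2 CPM in the NT4 libraries. The highest library was 2.24-fold above the lowest.

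Slc38a3 (SNAT3, ENSMUSG00000010064, chr9:107650634-107669530), the System N carrier of glutamine, asparagine and histidine, had 129.1 and 174.8 CPM in the Control libraries and 161.8 and 165.5 CPM in the NT4 libraries. Control 1 stood lowest and the other 3 libraries lay close together. Control 1 also held the most oocyte marker reads, 123.7 CPM, against 85.6 in Control 2, 99.4 in NT4 1 and 100.2 in NT4 2, and their part in the Slc38a3 value was not tested.

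Among the exchangers, Slc7a5 (LAT1, ENSMUSG00000040010, chr8:121881150-121907694), the light chain that carries leucine and other large neutral amino acids, was at 245.9 and 246.6 CPM in Control and at 274.4 and 211.3 CPM in NT4. The Control values were nearly equal and lay between the NT4 values. Slc7a8 (LAT2, ENSMUSG00000022180, chr14:54722209-54781946), the related light chain that also takes small neutral amino acids, had 103.3 and 149.2 CPM without NT-4 and 78.8 and 146.6 CPM with it. Here the libraries numbered 2 were the high ones. Slc7a6 (y+LAT2, ENSMUSG00000031904, chr8:106168857-106198706), which exchanges cationic for neutral amino acids, stayed between 109.3 and 122.8 CPM. Slc3a2 (ENSMUSG00000010095, chr19:8706882-8723369), the heavy chain shared by these light chains, stayed between 224.6 and 254.1 CPM.

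The remaining genes carry other substrates. Slc7a1 (CAT1, ENSMUSG00000041313, chr5:148327410-148399904), the uptake route for arginine and lysine, had 178.4 and 124.6 CPM without NT-4 and 189.4 and 96.3 CPM with it. The libraries numbered 1 were again above those numbered 2, with the lowest and the highest value both in the NT4 group. Slc1a5 (ASCT2, ENSMUSG00000001918, chr7:16781340-16798274), an exchanger of alanine, serine and glutamine, was low in all libraries, at 18.7 and 23.4 CPM in Control and 19.2 and 16.3 CPM in NT4.

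**Figure D1:**
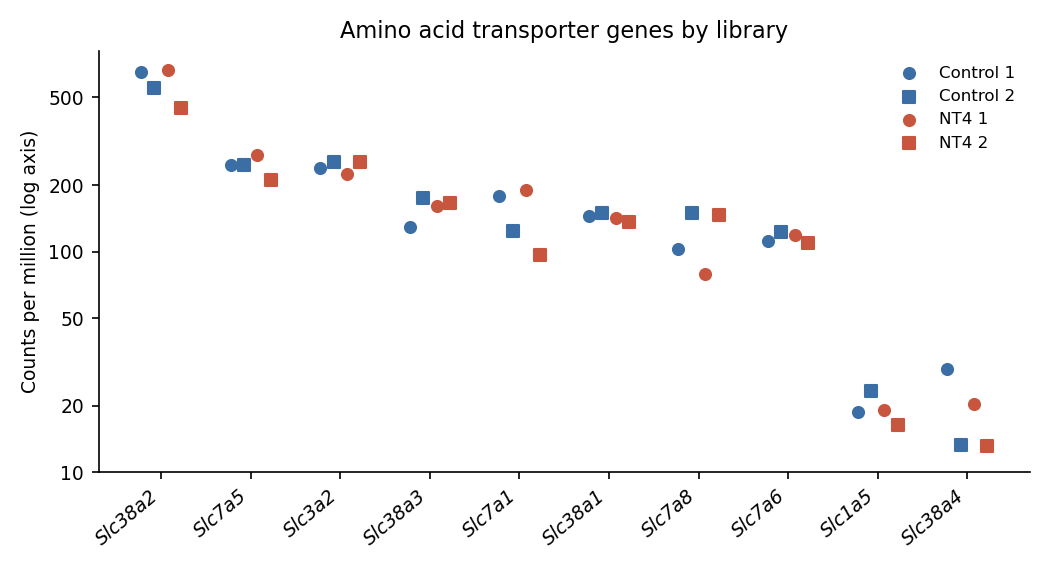
Level of each transporter gene in CPM (log axis) by library, with circles for libraries numbered 1, squares for those numbered 2, blue for Control and red for NT4. Slc38a2 is the highest (448.6 to 669.3 CPM), Slc1a5 and Slc38a4 the lowest, and the 2 groups overlap for all genes but Slc38a1.

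To compare genes with each other, CPM was divided by the length of the merged exons in kilobases (kb). On this scale Slc3a2, Slc7a5 and Slc38a2 formed the top of the set, at 68.8 ± 3.98, 66.0 ± 6.97 and 65.7 ± 11.5 CPM per kb (mean ± SD, n = 4 libraries). Their ranges over libraries overlapped, so their order is not set. Slc38a3 followed at 29.9 ± 3.77 CPM per kb, and its highest library was under the lowest library of Slc38a2. Slc7a6 (25.3 ± 1.35) and Slc7a8 (23.9 ± 6.85) did not separate from Slc38a3 or from each other. Slc7a1 (12.8 ± 3.83) overlapped Slc7a8 above it and Slc38a1 (8.30 ± 0.33) below it. Slc1a5 (4.65 ± 0.71) and Slc38a4 (4.48 ± 1.80 CPM per kb) came last and overlapped. The top group stood at percentiles 95.8 to 96.0 of level per length among tested genes and Slc38a4 at percentile 55.5. The level of Slc38a1 depended most on the length used, since its merged exons span 17236 bases and its longest transcript 7266. With the longest transcript as length Slc38a1 was at 19.7 CPM per kb, still in place 8 of 10, and Slc38a2 took first place.

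**Figure D2:**
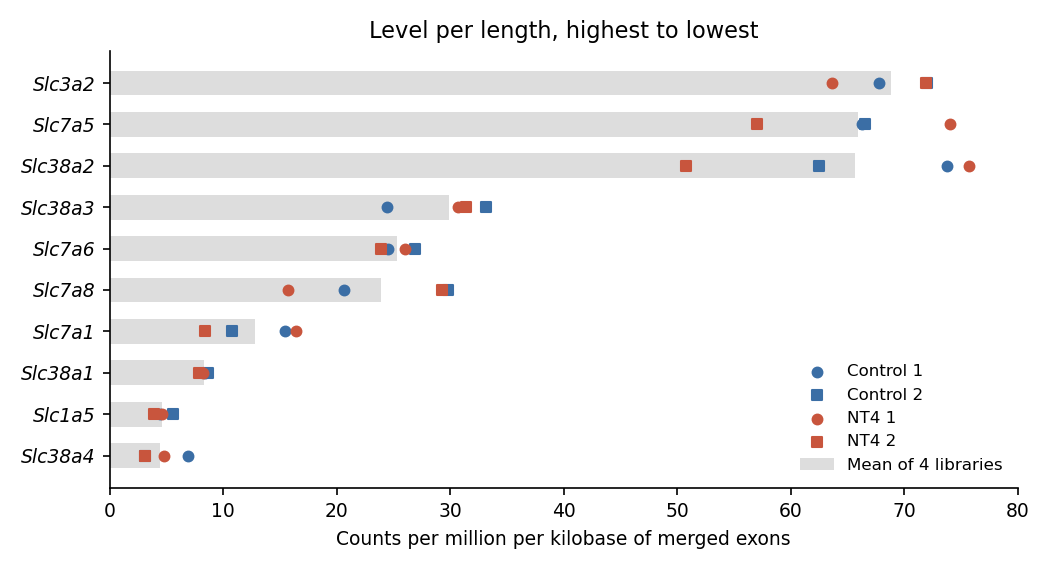
Level per length (CPM per kb of merged exons) of the 10 genes, with grey bars for the mean of 4 libraries and points for single libraries. Slc3a2, Slc7a5 and Slc38a2 overlap at the top, between 50.8 and 75.7 CPM per kb, and Slc1a5 and Slc38a4 at the bottom.

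Heavy and light chains were then set side by side within each library, on the level per length. The sum of Slc7a5, Slc7a6 and Slc7a8 was 1.65 and 1.71 times Slc3a2 in Control and 1.82 and 1.53 times in NT4, so the spread inside the NT4 group enclosed both Control values. Slc7a5 made up 51.7% to 63.9% of that sum and Slc7a6 a nearly fixed 21.7% to 22.5%. Slc7a8 made up 18.5% and 24.2% in Control and 13.6% and 26.6% in NT4. Of the summed level per length of the 4 Slc38 genes in the set, Slc38a2 held 54.5% to 65.0% and Slc38a3 21.5% to 33.7%. In both groups the share of Slc38a3 was the larger in the library numbered 2.

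The question of the group comparison was whether NT-4 in the medium changed these levels. By edgeR's quasi-likelihood test on all 19259 genes, 0 of the 10 transporter genes passed an adjusted p of 0.05, beside 0% of all genes tested. At an unadjusted p under 0.05 there were 0 of the 10, against 1.99% of all genes (383 of 19259). The criterion of the study's methods, a fold of 2 with an unadjusted p under 0.05, was met by 0 of the 10 and by 1.08% of all genes (0.478% higher and 0.602% lower). These shares are from the fit made here and are not the study's own count. By its methods the study also calculated a Benjamini-Hochberg adjusted p. For all genes, 65 were called at an adjusted p of 0.05 by the DESeq2 Wald test, 59 by the exact test in edgeR and 0 by voom in limma. None of the 10 was among them in any of these tests. The direction was lower in NT4 for 9 of the 10 and higher for Slc38a3, beside 9440 lower and 9819 higher of all 19259 genes. For 8 of the 10 the direction turned in some fit with 1 library left out. The median log2 fold change was −0.06, beside 0.0045 over all genes tested.

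The differences were small beside their errors. Slc38a4 had the largest, a log2 fold change of −0.33 (SE 0.41), with a 95% interval from −1.37 to 0.71. Slc1a5 followed at −0.23 (SE 0.19, interval −0.71 to 0.26) and was the single gene of the 10 whose difference exceeded its SE. Slc7a8 (−0.14, SE 0.35), Slc38a3 (0.13, SE 0.18), Slc38a2 (−0.09, SE 0.21) and Slc7a1 (−0.07, SE 0.34) lay closer to 0. Slc7a5 was at −0.0019 (SE 0.15), Slc3a2 at −0.02 (SE 0.13), Slc7a6 at −0.02 (SE 0.12) and Slc38a1 at −0.06 (SE 0.11). The adjusted p of edgeR's test was 0.9999 for each of them. For 8 of the 10 the interval kept the fold between 0.5 and 2. For Slc38a4 (0.39 to 1.63) and Slc7a8 (0.496 to 1.66) it reached beyond a 2-fold lower level. A p that misses the threshold does not show that the levels were equal.

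**Figure D3:**
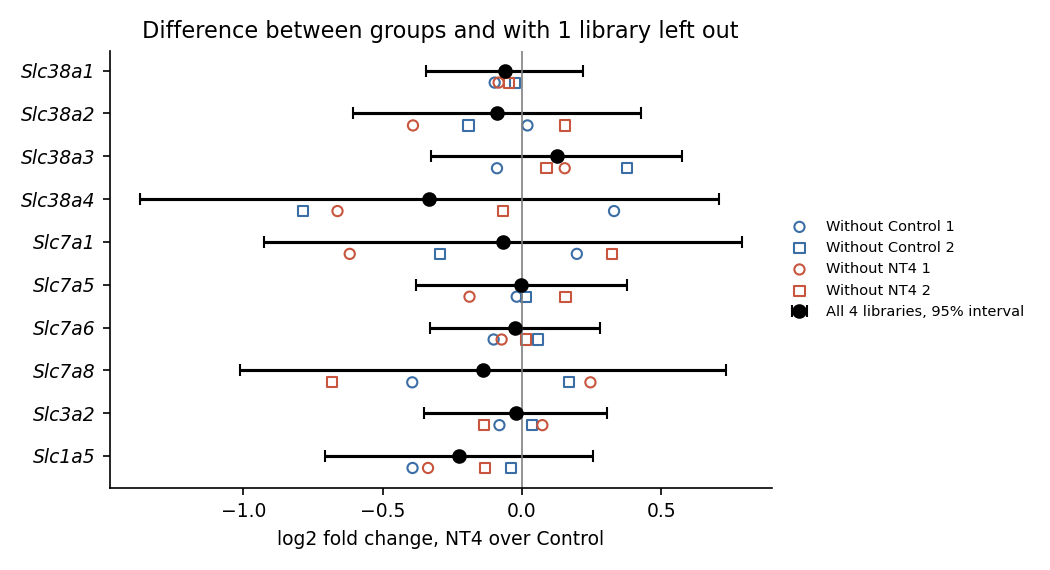
Log2 fold change of NT4 over Control for each gene, with black points and 95% intervals from all 4 libraries and open symbols below them for fits with 1 library left out. All 10 intervals include 0, and the open symbols fall on both sides of 0 for 8 genes.

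The NT4 and Control values did not overlap for 1 of the 10 genes, Slc38a1, which was lower with NT-4, and for 26.6% of all genes tested (11.9% higher and 14.6% lower). The difference inside the group was larger than that between groups for 9 of the 10 genes in Control and for 9 in NT4. Single libraries differ more than means of 2 libraries even with no change, so these sizes are a description and not a test. The median size of the difference between the 2 libraries of a group was 0.28 on the log2 CPM scale in Control and 0.31 in NT4 over the 10 genes, and their median log2 fold change between groups was 0.08 in size. The same medians inside the groups were 0.22 and 0.29 over the 18265 tested genes with counts in every library, and the median size between groups was 0.15 over all 19259 genes.

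The libraries numbered 1 and those numbered 2 did not overlap for 6 of the 10 genes, beside 48.6% of all genes tested. Slc38a2, Slc38a4 and Slc7a1 were higher in the libraries numbered 1, where 26.7% of all genes were. Slc38a3, Slc7a8 and Slc3a2 were higher in the libraries numbered 2, where 21.8% of all genes were. The log2 CPM of Slc7a1 in library 2 minus that in library 1 was −0.52 in Control and −0.97 in NT4. For Slc38a4 this difference was −1.14 and −0.63. It had the other sign for Slc7a8, at 0.53 and 0.89, and was small for Slc3a2, at 0.09 and 0.18. Summed granulosa markers were also higher in the libraries numbered 2, at 17798 and 19266 CPM against 14601 and 12741 CPM, and their part in these differences was not tested. Sequencing depth ran the same way. The libraries numbered 2 had totals of 73743901 (Control) and 78704020 (NT4) counts, against 49520092 and 61980073 in those numbered 1. Number and depth therefore cannot be told apart here, and the part of depth was not tested. Neither the labels nor the paper says whether a number marks a shared experiment, though by the paper its culture groups were run in parallel.

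**Figure D4:**
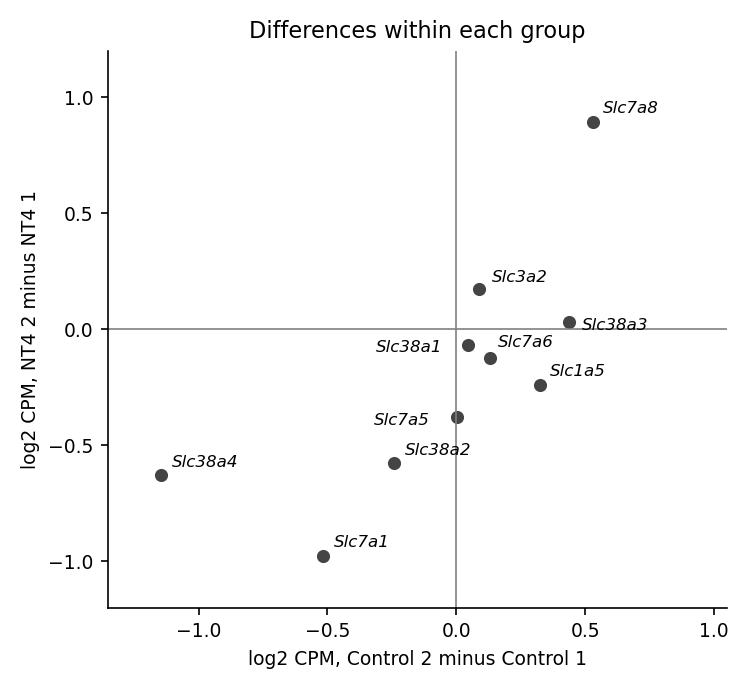
Difference in log2 CPM between the libraries numbered 2 and 1 within Control (horizontal) and within NT4 (vertical), with 1 point per gene. Slc38a4, Slc7a1 and Slc38a2 are below 0 on both axes, whereas Slc7a8 and Slc3a2 are above 0 on both and Slc38a3 is 0.44 and 0.03.

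Promoter sequence was searched for the 6 of the 10 genes with windows in the RefSeq table used (GRCm38.p6), Slc38a2, Slc38a4, Slc7a1, Slc7a6, Slc7a8 and Slc3a2. Windows held the 250 bases before a RefSeq start site and were searched on both strands. The motif GGGCGG, the GC box of housekeeping promoters, was in a window of 6 of these 6 genes and in 32.7% of all 32851 windows. The motif TGACG, the core of the site bound by ATF and CREB factors, was in a window of 4 (Slc38a2, Slc38a4, Slc7a1 and Slc7a6), beside 17.8% of all windows. The letters TGATGNAA, the combined C/EBP and ATF element of amino acid response genes, were in 0 of the 6, beside 3.45% of all windows. Elements after the start site, as in a first exon or intron, or farther upstream were outside the windows. The search therefore cannot tell whether these genes lack the element. Slc38a4, Slc7a1 and Slc7a6 have more than 1 window, which gives them more chances of a match. A match is a description of letters and not of binding. The upstream stretches of 3 genes are shown as examples, picked after their values were seen: Slc38a2 and Slc7a1 were higher in the libraries numbered 1 and Slc7a8 in those numbered 2. Slc38a4 and Slc3a2 also differed by number and have windows that are not shown, so the motifs cannot be read against the numbers from these examples. They are on the minus strand of chr15:96699731-96699978, chr5:148399905-148400154 and chr14:54781947-54782136 (GRCm38.p6), end just before the annotated gene start, and carry GGGCGG or TGACG in capitals, read on either strand (CCGCCC and CGTCA are the reverse strand).
Slc38a2: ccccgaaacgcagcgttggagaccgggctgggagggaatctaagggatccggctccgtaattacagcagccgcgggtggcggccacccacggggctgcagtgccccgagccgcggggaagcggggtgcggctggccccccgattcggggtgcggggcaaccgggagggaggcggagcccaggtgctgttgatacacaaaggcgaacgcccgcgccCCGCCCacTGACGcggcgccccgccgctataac
Slc7a1: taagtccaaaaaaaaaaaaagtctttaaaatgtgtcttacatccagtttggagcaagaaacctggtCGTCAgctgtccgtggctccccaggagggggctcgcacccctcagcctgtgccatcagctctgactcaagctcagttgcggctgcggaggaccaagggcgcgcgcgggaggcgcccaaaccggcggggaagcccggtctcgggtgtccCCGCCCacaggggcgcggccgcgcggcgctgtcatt
Slc7a8: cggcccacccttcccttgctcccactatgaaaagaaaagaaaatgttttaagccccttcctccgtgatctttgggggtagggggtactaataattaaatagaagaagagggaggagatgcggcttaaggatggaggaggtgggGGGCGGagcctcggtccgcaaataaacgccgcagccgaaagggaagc
The stretches of Slc38a2 and Slc7a1 each hold a GC box and a TGACG core, and that of Slc7a8 holds a GC box alone. In Slc38a2 they begin 33 and 25 bases before the gene start, with 72.2% of the stretch being G or C, against 62.4% in Slc7a1 and 53.2% in Slc7a8.

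Other transporters of amino acids were read from a list of 38 genes, of which 28 passed the filter. Of these, 15 were higher and 13 lower in NT4, 0 passed the adjusted p, and the median log2 fold change was 0.0099, or −0.25 without NT4 1. Both NT4 libraries were below both Control libraries for 7 of the 28 and above for 1, beside 14.6% and 11.9% of all genes, and with TMM-scaled totals, a check added after seeing the data, for 6 and 1, beside 12.7% and 13.4%. Slc38a5 (SNAT5), a System N carrier related to Slc38a3, was at 363.3 and 337.1 CPM in Control and 397.0 and 337.9 CPM in NT4. Per length it reached 160.1 CPM per kb, above each of the 10 genes. Its log2 fold change was 0.09 (SE 0.12). Slc38a10 was at 39.4 CPM per kb with a log2 fold change of 0.01 (SE 0.11). Slc7a2 (CAT2), a relative of Slc7a1, was at 5.96 and 6.67 CPM in Control and 2.95 and 4.41 CPM in NT4. Its exons overlap the opposite-strand Gm26584 over 6.95% of their bases. Its log2 fold change of −0.75 (SE 0.29) had the smallest unadjusted p of the list, 0.0449 in edgeR's test, where its adjusted p was 0.9999. Slc6a9 (GLYT1), the glycine transporter, was lower in both NT4 libraries (39.1 and 45.9 against 57.5 and 54.3 CPM in Control), with a log2 fold change of −0.37 (SE 0.15), and 27.8% of its exon bases overlap Ccdc24 on the other strand, so its count is uncertain. Slc7a11 (xCT), the cystine light chain that also pairs with Slc3a2, was at 22.8 to 26.8 CPM with a log2 fold change of 0.10 (SE 0.17).

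Genes downstream of amino acid supply were read from 4 further lists. For sensing by the growth kinase mTORC1, 35 of 35 genes were tested, 19 higher and 16 lower. Their median was 0.0069, or −0.023 without NT4 1. Lamtor5, a subunit of the lysosomal anchor, was at 60.4 CPM per kb and Sec13 at 56.9 CPM per kb. Flcn, a regulator of the Rag GTPases, had the smallest unadjusted p of that list (0.0749, log2 fold change −0.48, SE 0.22, adjusted p 0.9999 in edgeR's test). Sesn2, a leucine sensor, had a log2 fold change of 0.08 (SE 0.14).

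For the ATF4 response to amino acid shortage, 23 of 24 genes were tested, 15 higher and 8 lower, with a median of 0.11 that turned to −0.044 without NT4 1. Atf4 itself had 242.3 and 381.8 CPM without NT-4 and 242.3 and 222.4 CPM with it, so Control 2 alone stood high. Cebpb, a partner of ATF4, was at 54.9 and 56.1 CPM in Control and 87.2 and 80.9 CPM in NT4, higher in both NT4 libraries, with a log2 fold change of 0.62 (SE 0.12) and an adjusted p, by edgeR, of 0.9999. The opposite-strand Tmem189 overlaps 20.7% of its exon bases, so its count is uncertain. The kinase Eif2ak4 (GCN2), which senses uncharged tRNA, was at 60.6 to 66.3 CPM with a log2 fold change of 0.07 (SE 0.12). Asns, asparagine synthetase, was at 112.9 and 130.1 CPM in the libraries numbered 1 and at 82.3 and 85.5 CPM in those numbered 2, the same side as Slc38a2 and Slc7a1. Phgdh, the first enzyme of serine synthesis, had a log2 fold change of −0.0093 (SE 0.13). In this list 15 of 23 genes were higher in both libraries numbered 1 and 1 in both numbered 2, beside 26.7% and 21.8% of all genes. The counts were 14 and 2 of 28 for the other transporters, 11 and 2 of 20 for the synthetases described next, 12 and 7 of 35 for the mTORC1 list and 6 and 5 of 22 for the glutamate list. These counts depend on the scaling: with TMM-scaled totals, a check added after seeing the data, they were 9 and 1 for the ATF4 list, 14 and 3 for the other transporters, 7 and 3 for the synthetases, 10 and 7 for the mTORC1 list and 6 and 6 for the glutamate list, beside 24.3% and 24.8% of all genes. For the 10 transporters they were 3 and 3 on both scalings.

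For the cytosolic aminoacyl-tRNA synthetases, which load tRNA with amino acids, 20 of 20 genes were tested, 7 higher and 13 lower. Their median was −0.01, or −0.071 without NT4 1. Gars was at 63.2 and Kars at 44.8 CPM per kb, and Iars had the smallest unadjusted p (0.346, log2 fold change −0.17, SE 0.16, adjusted p 0.9999 in edgeR's test). For enzymes of glutamate, glutamine and branched-chain amino acids, 22 of 23 genes were tested, 11 in each direction. The median was −0.0056, or 0.049 without Control 2. Oat (79.6 CPM per kb) and Odc1 (55.0 CPM per kb) were the most abundant, and Gclm was at −0.20 (SE 0.12). Groups did not overlap for 4 genes above and 1 below in the ATF4 list (7 and 0 with TMM-scaled totals), 1 and 4 in the synthetases (3 and 5), 1 and 1 in the mTORC1 list (2 and 1) and 4 and 2 in the glutamate list (4 and 1). Of all genes tested, 11.9% were above and 14.6% below (13.4% and 12.7% with TMM-scaled totals). In each of the 5 lists, 0 genes passed the adjusted p in edgeR's quasi-likelihood test. In that test an unadjusted p under 0.05 was reached by Cebpb (higher) and Slc7a2 (lower) alone, beside 1.99% of all genes tested.

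**Figure D5:**
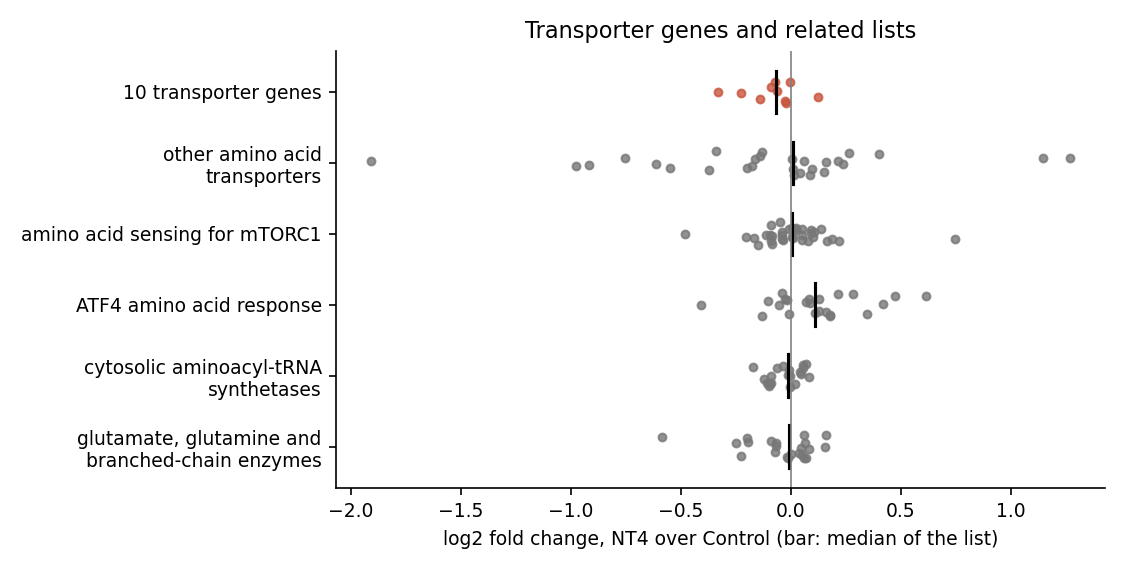
Log2 fold change of NT4 over Control for each tested gene of the 10 transporters and of the 5 related lists, with a black bar at the median of each list. Medians lie between −0.06 for the 10 transporters and 0.11 for the ATF4 list, which was −0.044 without NT4 1.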

How the data were processed

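RNA of GCs from 4 libraries had been sequenced on an Illumina instrument, and the labels set 2 libraries each in Control and NT4. By their methods, the authors filtered reads with Cutadapt 1.9, mapped them with HISAT2 (Ensembl release 99, mm10 per the labels' processing notes) and estimated expression with StringTie and ballgown. Expected counts per gene, as whole numbers and without normalization, are what the authors deposited. By the study's methods, the second DNA strand was labelled with U and treated with the enzyme UDG, which marks strand in the library. How whole counts were made, and whether strand was used in counting, is not stated. About 4 counts were taken as 1 read pair, because 45.4% to 46.2% of the low counts of a library were multiples of 4. The other low counts were not, so read pairs and the counting error are estimates. Files of single libraries and the joint table were identical in 4 of 4 libraries.

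Symbols, positions and exon lengths came from GENCODE M21 (GRCm38), which matched 55144 of 55385 identifiers. This release is not the one the authors counted on, so lengths are approximate. Promoters came from RefSeq (GRCm38.p6).

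Tests used R 4.3.3 and edgeR 4.0.16, by quasi-likelihood (TMM, default filter on low counts, group alone in the model, two-sided, Benjamini-Hochberg over 19259 genes). Intervals of 95% used the SE and edgeR's moderated degrees of freedom. With 2 libraries against 2 only 3 splits exist, so an exact permutation test could not reach a p of 0.05. CPM values used library totals. Alternatives were DESeq2 1.42.0 size factors and Wald test, library totals, 2 other filters, edgeR's exact test, limma 3.58.1 voom, counts divided by 4, thresholds at a fold of 1.5 and an adjusted p of 0.1, the longest transcript as length, the replicate number as a block and leaving out each library. The procedure was tested on simulated data. The members, the 5 related lists, the 8 marker lists and the naming rule (the 10 members, the 2 most abundant genes per length and the smallest p of each list, and 6 genes by name) were chosen with earlier results of these data known. The result of 1 marker list is not reported here.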

Additional observations from a re-analysis of the deposited data

How the results depend on the processing

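Under the 9 other fits on all 4 libraries, the log2 fold change of each of the 10 genes kept its direction, and none was called in these or in the fits with a library left out, where the smallest adjusted p was 0.910. Leaving out 1 library at a time gave ranges of −0.39 to 0.15 for Slc38a2, −0.089 to 0.38 for Slc38a3, −0.79 to 0.33 for Slc38a4, −0.62 to 0.32 for Slc7a1, −0.19 to 0.16 for Slc7a5, −0.10 to 0.058 for Slc7a6, −0.68 to 0.25 for Slc7a8 and −0.13 to 0.074 for Slc3a2, all crossing 0. Slc1a5 (−0.39 to −0.04) and Slc38a1 (−0.10 to −0.02) did not cross it. Of 130 values, 14 changed direction and 116 did not. The count of genes at an adjusted p of 0.05 was 0, but 65 in DESeq2, 59 by the exact test of edgeR, 10 with no filter and 0 to 37 with a library left out. The count by the criterion was 208, and it was 345 with no filter, 87 with the CPM filter, 119 with counts divided by 4 and 341 to 512 with a library left out, where a group of 1 library takes its spread from the other group. That is 12 genes without Control 1 and 37 without Control 2 at the adjusted p, and 512 without Control 2 by the criterion. The count at an unadjusted p under 0.05 was 383 and was 554 to 863 with a library left out (652 without Control 2, 863 without NT4 1 and 736 without NT4 2). With a library left out the median was −0.14 (without NT4 1) to −0.0049 (without Control 2) for the 10 transporters, −0.023 to 0.031 for the mTORC1 list, −0.044 to 0.13 for the ATF4 list, −0.071 to −0.00074 for synthetases, −0.25 to 0.10 for other transporters and −0.0060 to 0.049 for the glutamate list, with the lowest of the mTORC1, ATF4, synthetase and other transporter lists without NT4 1. It was −0.13 for other transporters with no filter and −0.025 for the glutamate list with library totals. The ratio of light chains to Slc3a2, 1.68, was 1.5 with the longest transcript as length. For each of these the cause was not tested.

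The labels give both groups the same replicate numbers without stating a pairing. The paper says that its culture groups were run in parallel over replicated experiments, but it does not tie a number to an experiment. Differences between libraries 2 and 1 in Control and in NT4 correlated across 18265 genes, which are not independent, with Pearson's r at 0.17 and Spearman's rho at 0.27, and r was 0.31 among 10477 genes whose mean log2 CPM exceeded 3. A fit with a replicate block called 0 genes at the adjusted p, 580 at an unadjusted p under 0.05, and 180 by the criterion. All 10 genes kept direction under the block and none was called.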
